A study of Mus musculus with 66 samples.

Results

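The genes of respiratory complexes I, II, III and V were followed through the regeneration of mouse gastrocnemius, a calf muscle. Members were the genes whose symbol starts with Nduf, Sdh, Uqcr or Atp5, with Cyc1 and Cycs, and with a probe set annotated to that gene alone on the later version (Av2) of the Affymetrix array. Where a gene had several such probe sets, the brightest by its mean over the 54 arrays stood for it. This gave 60 genes of the 8251 with such a probe set. They comprise 29 subunits of complex I, 4 of complex II, 8 of complex III, 14 of complex V, the carrier Cycs and 4 assembly factors.

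Muscle was left untreated or taken at 26 times after cardiotoxin, which comes from snake venom and kills muscle fibres, had been injected. Each of the 27 groups held 2 arrays. The times were 12 h, 1, 2 and 3 d, every 0.5 d to 10 d, then 11, 12, 13, 14, 16, 20, 30 and 40 d. An injection of 100 ul at 10 uM is stated in the labels of 10 arrays, all of the earlier array version (A) described below. No label of an injected Av2 array states a dose. An age of 8 weeks is stated in the labels of 4 control arrays, from both versions. Neither strain nor sex is given in the sources used here. Whether both arrays of a group stand for separate mice is not stated in the labels. In 9 of the 27 groups both arrays carry the same sample number and differ only in the letters LL or RL. Such pairs may come from the same mouse, and in the other 18 groups the numbers differ. The p-values here therefore cover the array-to-array spread only, which may be technical. An earlier array version (A) was hybridised for controls, 12 h, 1, 2, 4 and 10 d, with 2 arrays each.

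Complexes I and II pass electrons from NADH and succinate to ubiquinone. Complex III passes them on to cytochrome c, complex IV (cytochrome oxidase) hands them to oxygen, and complex V uses the resulting proton gradient to make ATP. Most of their subunits are encoded in the nucleus, and the mitochondrial genome encodes a few core subunits of all but complex II. Oxidative muscle fibres hold many mitochondria, and new fibres build theirs as they mature.

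For promoter sequence, RefSeq (GRCm38.p6) gave a window of 250 bases before the start of transcription for 50 of the 60 genes, 55 windows in all. The windows of 4 deeply falling genes, 1 per complex, are shown so that the letters of the binding motifs known from respiratory genes can be seen. Capitals mark the NRF1 motif (GCGCA, any base, then GCGC) or the GABP motif CCGGAAG (on the opposite strand CTTCCGG). All 4 lie on the minus strand and run 5′ to 3′. Ndufc1 is at chr3:51408956-51409205, Sdha at chr13:74350241-74350490, Uqcr11 at chr10:80406822-80407071 and Atp5e at chr2:174464102-174464351.
Ndufc1: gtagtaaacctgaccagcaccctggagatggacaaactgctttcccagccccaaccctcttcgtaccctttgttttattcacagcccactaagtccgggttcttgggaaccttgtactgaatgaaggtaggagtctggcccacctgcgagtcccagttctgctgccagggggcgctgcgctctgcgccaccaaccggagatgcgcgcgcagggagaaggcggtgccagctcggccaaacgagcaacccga
Sdha: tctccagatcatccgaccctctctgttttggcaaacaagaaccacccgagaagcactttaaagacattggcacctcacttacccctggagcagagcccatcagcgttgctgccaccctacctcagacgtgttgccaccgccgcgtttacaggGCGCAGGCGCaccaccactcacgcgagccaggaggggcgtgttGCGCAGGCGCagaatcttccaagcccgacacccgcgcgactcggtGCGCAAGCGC
Uqcr11: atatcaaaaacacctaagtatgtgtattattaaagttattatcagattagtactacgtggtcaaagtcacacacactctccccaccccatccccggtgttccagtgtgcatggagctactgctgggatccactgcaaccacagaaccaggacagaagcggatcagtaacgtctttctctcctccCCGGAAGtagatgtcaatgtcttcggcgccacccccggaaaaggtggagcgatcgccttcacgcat
Atp5e: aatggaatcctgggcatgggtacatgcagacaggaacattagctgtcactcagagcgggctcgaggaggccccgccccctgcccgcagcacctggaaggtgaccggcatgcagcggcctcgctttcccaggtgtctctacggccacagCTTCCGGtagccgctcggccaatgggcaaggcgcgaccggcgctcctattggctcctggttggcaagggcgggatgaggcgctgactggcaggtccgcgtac
The window of Sdha, the flavoprotein of complex II, held 3 copies of the NRF1 motif. Those of Uqcr11, a small subunit of complex III, and Atp5e, the epsilon subunit of complex V, each held 1 GABP motif. That of Ndufc1, a small membrane subunit of complex I, held neither. Searched on both strands, the NRF1 motif lay in 9 of the 55 windows (16.4%), against 3.74% of the 32851 windows of all genes and 6.8% of the 8413 windows of genes on the array. The GABP motif lay in 11 (20%), against 6.91% and 11.3%. The ERRa motif TCAAGGTCA lay in none, against 0.387% of all windows, and the YY1 motif AAGATGG in 1 (1.82%, against 4.49%). The genes with an NRF1 motif were Atp5c1, Atp5g2, Atp5k, Ndufa5, Ndufa8, Ndufaf4, Sdha and Sdhd. A match is a description of these letters, and the arrays hold no measure of binding.

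The deposited values were read as intensities on a linear scale, and changes are log2 differences from the 2 untreated arrays, fitted over all 11997 tested probe sets with limma and called at a Benjamini-Hochberg adjusted p of 0.05. Each array had been brought to a 2% trimmed mean of 800.4 to 800.5, and 76.4% to 83.4% of its probe sets lay above a floor of 64.7. All 60 genes were tested, and 55 lay above the floor on every array. Replicate arrays were least alike at 12 h (correlation of log2 values 0.9033) and most alike at 3 d (0.9806). On 7 arrays the ratio of the 3′ to the 5′ control probe set of b-actin lay under 0.1. These were replicate 2 of 12 h and both 1 d, 2 d and 4 d arrays. On 8 later arrays the Gapdh ratio lay under 0.1, among them both of 30 d and replicate 1 of 40 d. The 7 arrays low in b-actin had Gapdh ratios of 0.589 to 0.97, and the 8 low in Gapdh had b-actin ratios of 0.902 to 1.38. A low ratio was thus seen in 1 control gene at a time, and its cause was not tested.

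Genes of all 4 complexes were lower than in untreated muscle from the first day and came back over the following weeks. In the window of 12 h to 2 d, with 6 arrays, 53 of the 60 genes were lower, where 18.5% of all probe sets were. Lower genes numbered 56 at 3 to 4.5 d (8 arrays; all probe sets 18.5%), 47 at 5 to 7.5 d (12 arrays; 16.1%) and 39 at 8 to 10 d (10 arrays; 13.8%). They numbered 27 at 11 to 16 d (10 arrays; 10.2%) and 3 at 20 to 40 d (6 arrays; 2.12%). The first and the late counts rest on few arrays. Of the 6 arrays of 12 h to 2 d 5 are low in b-actin 3′. On the other, 12 h replicate 1, the falls were small, with medians of -0.4 (complex I), -0.07 (II), -0.39 (III) and -0.42 (V). The part of what lowered that ratio was not tested. At 8 to 10 d 22 genes were lower with either control left out. At 11 to 16 d 6 were lower without control replicate 1, 2 without control replicate 2, 14 under quantile normalization and 12 without the 8 arrays low in Gapdh 3′. At 20 to 40 d none was lower with limma with either control left out (14 at an unadjusted p under 0.05 with both), 1 was without 30 d replicate 2, without 40 d replicate 1 or under quantile normalization, 14 were with either 12 h array left out and 20 without the 7 arrays low in b-actin 3′. None was higher in any window with limma, nor at an unadjusted p under 0.05 (0 in each), where 17.7%, 22.2%, 19%, 16.9%, 13.9% and 5.01% of all probe sets were. The median log2 change of the 60 genes was -1.57, -1.6, -1.06, -0.77, -0.61 and -0.45 in the 6 windows, while that of all tested probe sets lay between 0 and 0.03. In bulk tissue, fewer fibres and less of these RNAs per fibre cannot be told apart.

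Over the whole course 54 of the 60 genes changed by limma's F test, as did 48.7% of all probe sets. The others were Ndufa1, Ndufc2, Ndufa12, Atp5g1, Atp5j2 and Atp5pb. Of the 55 genes with a control intensity of at least 500, 55 were lower at 3 to 4.5 d, and of the 5 dimmer ones 1 was. This division by brightness was made after seeing the data and uses the controls, which are also the reference of the changes. It therefore describes these genes and tests nothing.

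**Figure D1:**
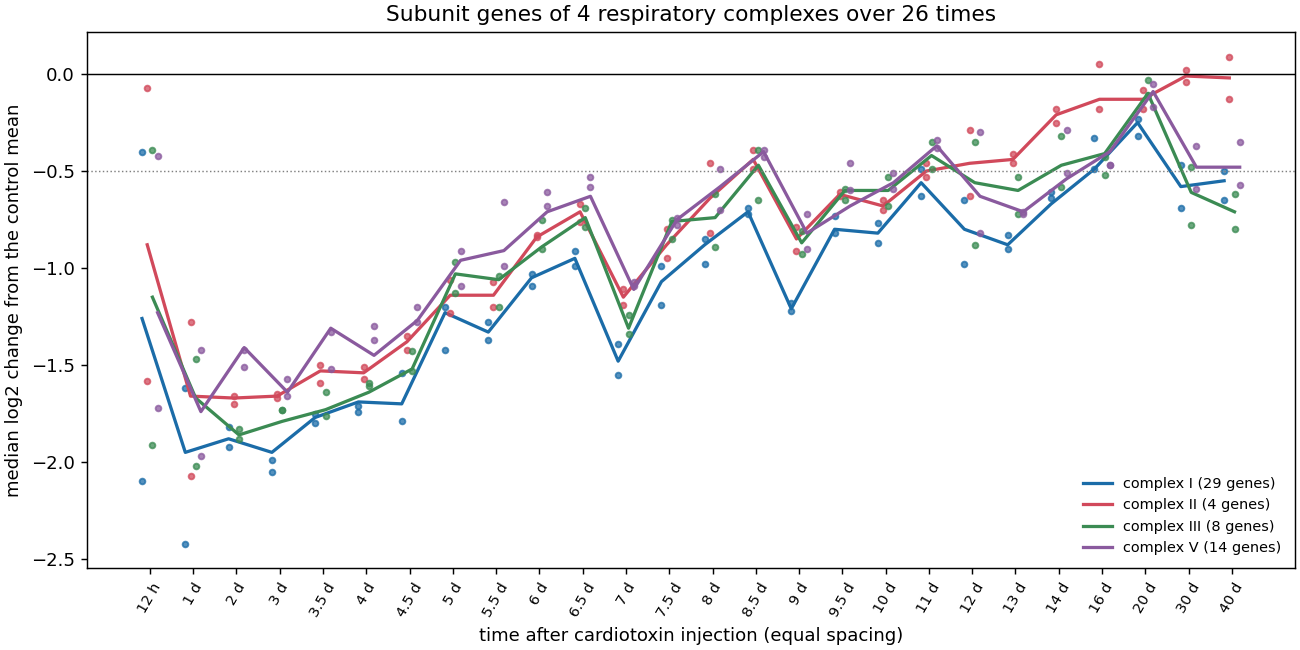
Median log2 change from untreated muscle over the subunit genes of complexes I, II, III and V at each time after cardiotoxin (equal spacing); points are single arrays, lines join the medians of the group means, and the dotted line marks -0.5. The lowest medians lie between -1.67 and -1.95, the line of complex I lies below that of complex V at every time, and the 12 h points lie far apart.

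Complex I, the NADH dehydrogenase, had the deepest lowest median of the 4 against the untreated arrays. Its median over 29 subunits had its lowest value at 1 d, -1.95, a 3.88-fold fall, and stood at -1.95 at 3 d as well. Complex III reached -1.86 at 2 d (3.64-fold), complex V -1.74 at 1 d (3.35-fold) and complex II -1.67 at 2 d (3.18-fold). At 3 to 4.5 d the medians were -1.75 (I), -1.54 (II), -1.64 (III) and -1.41 (V), but with 30 and 40 d as the reference complex II was deepest (-1.39, against -1.3 for I). With 1 array left out the lowest time of complex I moved between 0.5 and 3 d (0.5 d without 12 h replicate 1; 3 d without 1 d replicate 1). Without the 7 arrays low in b-actin 3′, which include both arrays of 1 and 2 d, the lowest time was 3 d in all 4 complexes.

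The 12 h arrays differed in every complex. The median over complex I was -0.4 on replicate 1 and -2.1 on replicate 2, that over complex II -0.07 and -1.58, over complex III -0.39 and -1.91, and over complex V -0.42 and -1.72. Replicate 2 is also the array of the pair that was low in b-actin 3′. The part of what lowered that ratio in this difference was not tested. At 1 d complex I stood at -2.42 and -1.62, so both arrays were low there.

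Single genes of complex I most often had their lowest group mean at 3 d (11 genes) or 1 d (10 genes), with 4 at 2 d. The median time of the lowest mean over genes was 3 d in complex I and 2 d in complexes II, III and V. These times sit within the range over which leaving out single arrays moved the medians of the complexes.

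Set against each other on the same array, complex I lay below complex V on all 8 arrays of 3 to 4.5 d, by -0.39 ± 0.12 log2 (SD). The gap was -0.39 ± 0.1 at 5 to 7.5 d (12 of 12 arrays), -0.3 ± 0.1 at 8 to 10 d (10 of 10) and -0.16 ± 0.15 at 11 to 16 d (9 of 10). At 20 to 40 d it was -0.13 ± 0.04 (6 of 6). On the control arrays the medians of complex I were 0.03 and -0.03, and those of complex V 0 and 0. Quantile normalization gave -0.34 ± 0.1 at 3 to 4.5 d (8 of 8). Complex I lay below complex III by -0.17 ± 0.11 at 3 to 4.5 d (7 of 8) and -0.23 ± 0.05 at 5 to 7.5 d (12 of 12), but by -0.01 ± 0.16 at 20 to 40 d (2 of 6). The gene sets are fixed, so these gaps describe the genes measured and carry no p-value.

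**Figure D2:**
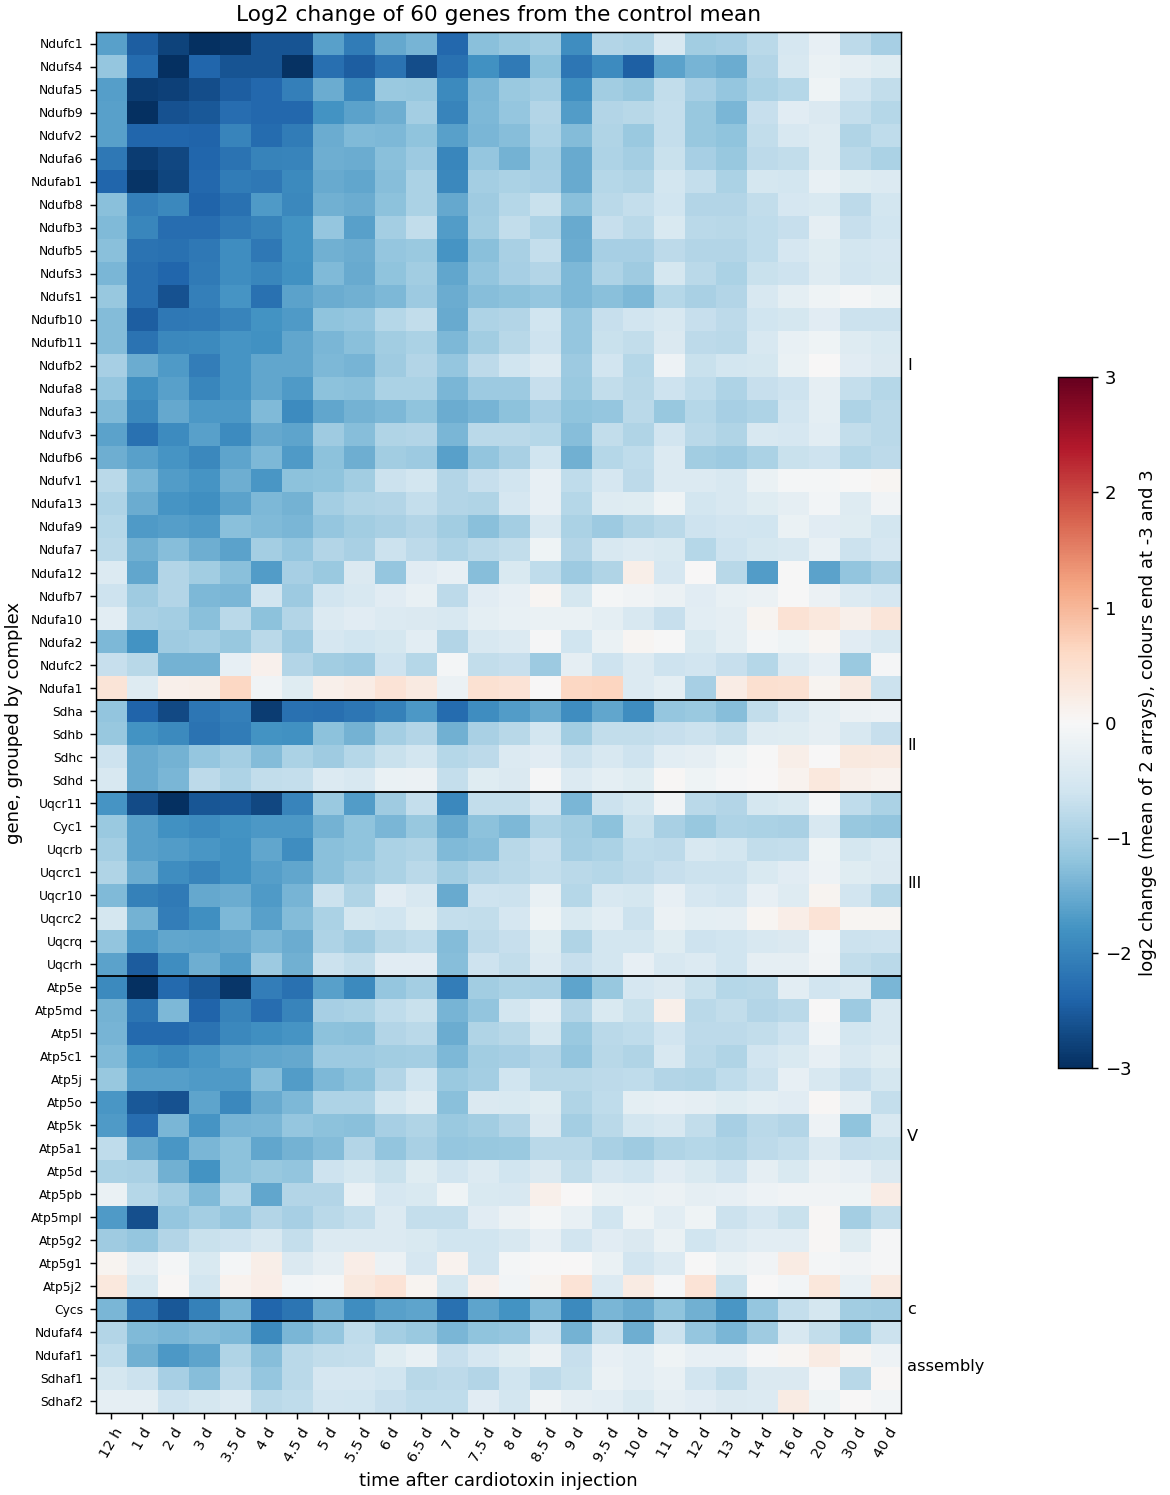
Log2 change of each of the 60 genes (rows, grouped by complex) at each of the 26 times after cardiotoxin (columns), as the mean of 2 arrays against untreated muscle, with colours ending at -3 and 3. Nearly every row is low from 1 to 4.5 d and again at 7 d, while the rows of Ndufa1, Atp5g1 and Atp5j2 stay near 0 or change sign.

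The core subunits of the matrix arm of complex I include those that carry its flavin and iron-sulfur clusters. All 4 measured here, Ndufv1, Ndufv2, Ndufs1 and Ndufs3, fell at 3 to 4.5 d, with a median of -1.93. Ndufs1, the largest of them, stood at 9890 and 10190 in controls and at 2133, 2670 and 3578 (lowest, median and highest of 8 arrays) at 3 to 4.5 d (-1.92 log2, SE 0.2, adjusted p = 1.8e-09). No array of that window reached either control. By 20 to 40 d it had reached 8065, 9579 and 10290, which overlaps the controls (-0.11). Ndufv2 fell by 2.19 and Ndufs3 by 1.94 at 3 to 4.5 d. A dimmer Ndufv2 probe set gave a smaller fall (-1.09, SE 0.15, adjusted p = 3.9e-07, limma).

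Among accessory subunits, 8 of 8 of the matrix arm fell at 3 to 4.5 d (median -1.53), and 14 of 16 of the membrane arm (median -1.74). Ndufc1 had the largest fall of all 60 genes in this window. It stood at 12040 and 11780 in controls and at 1379, 1776 and 2103 at 3 to 4.5 d, a 7.03-fold fall (-2.81, SE 0.28, adjusted p = 7.9e-10). At 11 to 16 d its arrays lay at 4677, 7363 and 9113, all below both controls (-0.77, adjusted p = 0.035), and at 20 to 40 d at 4950, 7305 and 13720, where the highest array overlaps the controls (-0.67, adjusted p = 0.17).

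Ndufs4, needed for a late step in the assembly of complex I, came back late. It stood at 551.4 and 733.6 in controls and at 70.93, 97.61 and 149.7 at 3 to 4.5 d (-2.63, SE 0.39, adjusted p = 1.7e-06, 6.2-fold). Over the course 2 arrays lay at the floor, so the size of a fall that includes them is a lower bound. At 8 to 10 d it was still at 67.02, 171.8 and 283.2 (-1.98, SE 0.38, adjusted p = 0.00014), below both controls on every array. By 20 to 40 d it had reached 408.5, 522.2 and 673.7, within and below the range of the controls (-0.28, adjusted p = 0.8).

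Other deep falls of complex I at 3 to 4.5 d were those of Ndufa5 (-2.38), Ndufb9 (-2.38), Ndufa6 (-2.15) and Ndufab1 (-2.12), the mitochondrial acyl carrier protein. The shallowest of those that passed were Ndufa2 (-1.01), Ndufa10 (-1.04) and Ndufb7 (-1.09). Ndufa1 and Ndufc2 did not pass, and both are dim. Ndufa1, a membrane arm subunit, stood at 243.1 and 248.5 in controls and at 101, 281.5 and 510.3 at 3 to 4.5 d, on both sides of the controls (0.08, SE 0.55, adjusted p = 0.96). Ndufc2, a neighbour of Ndufc1 in the complex, changed by -0.60 (SE 0.41, adjusted p = 0.27) from 364.6 and 215.6. The call of Ndufa12 (-1.24, SE 0.44, adjusted p = 0.023) rested on controls of 300.9 and 140.1 and was lost without control replicate 1 (adjusted p = 0.43), and 11 of its arrays lay at the floor.

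The 4 genes of complex II, succinate dehydrogenase, which also works in the citric acid cycle, differed in depth. The catalytic subunits on the matrix side, Sdha and Sdhb, fell at 3 to 4.5 d (-2.32 and -1.98), and so did the membrane anchors, Sdhc and Sdhd (-1.1 and -0.79). All 4 passed.

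Sdha stood at 3227 and 3849 in controls and at 488.4, 784.4 and 912.7 at 3 to 4.5 d, a 5-fold fall (-2.32, SE 0.22, adjusted p = 2.6e-10). Its lowest mean came at 4 d (-2.85, 7.2-fold), on arrays low in b-actin 3′. At 8 to 10 d it stood at 942.2, 1016 and 1440, below both controls on all 10 arrays (-1.69, SE 0.21, adjusted p = 1.8e-07). At 11 to 16 d it was at 1349, 1743 and 2757 (-0.96, adjusted p = 0.00088) and at 20 to 40 d at 2582, 3130 and 3329, where the highest array lies between the controls (-0.2, adjusted p = 0.71).

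Sdhb, the iron-sulfur subunit, stood at 16110 and 15460 in controls and at 3196, 4136 and 4590 at 3 to 4.5 d (-1.98, SE 0.25, adjusted p = 7.1e-08). By 8 to 10 d it was at 7372, 9394 and 11050 (-0.79, adjusted p = 0.011), all below the controls. Sdhd stood at 10700 and 9020 in controls and at 4737, 5705 and 6320 at 3 to 4.5 d (-0.79, SE 0.19, adjusted p = 0.00096). At 8 to 10 d it was at 6712, 7847 and 10250, which overlaps the controls (-0.31, adjusted p = 0.24). Sdhc stood at 10560 and 9349 in controls, at 5887, 6858 and 8335 at 8 to 10 d (-0.5, adjusted p = 0.046) and at 9716, 11920 and 12480 at 20 to 40 d (0.19, adjusted p = 0.69).

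The log2 ratio of Sdha to Sdhd gives the difference between these courses on each array. It was -1.73 and -1.23 on the controls, -2.86 ± 0.19 on the 10 arrays of 8 to 10 d (SD; -3.07 to -2.45) and -1.88 ± 0.21 on the 6 arrays of 20 to 40 d (-2.18 to -1.65). The ranges of the 2 windows do not overlap. The difference of -0.99 had a 2-sided exact permutation p = 0.00012, the smallest that these array numbers can give. This pair was chosen after seeing the data, and holds the deepest and the shallowest gene of complex II at 3 to 4.5 d. Each window also pools arrays of several times. The p-value is therefore a description of a chosen contrast.

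**Figure D3:**
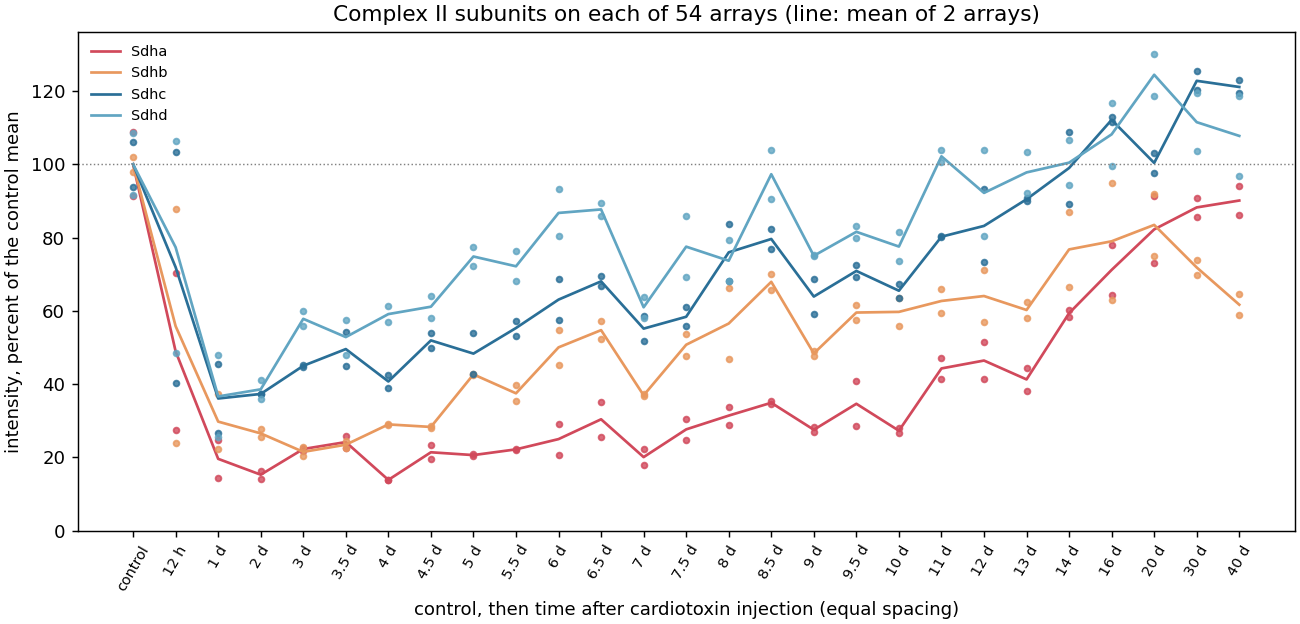
Intensity of Sdha, Sdhb, Sdhc and Sdhd on each array, as a percent of the gene's control mean, in the order of time after cardiotoxin (equal spacing, untreated arrays at the left); points are arrays and lines join the means of 2 arrays. From 5 to 13 d the points of Sdha lie below those of the other 3 genes at each time, and they come near the controls at 20 to 40 d.

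All 8 genes of complex III fell at 3 to 4.5 d, with a median of -1.64. Uqcr11, a small subunit, fell most. It stood at 8029 and 7817 in controls and at 1046, 1380 and 2047 at 3 to 4.5 d (-2.46, SE 0.29, adjusted p = 2.6e-08, 5.49-fold), with its lowest mean at 2 d (-2.99, 7.95-fold). At 5 to 7.5 d it had come back to -1.21. At 20 to 40 d its arrays lay at 3916, 4736 and 9039, on both sides of the controls (-0.59, adjusted p = 0.28).

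The core proteins Uqcrc1 and Uqcrc2 fell by 1.75 and 1.53 at 3 to 4.5 d, and the small subunits Uqcrb, Uqcr10, Uqcrq and Uqcrh by 1.75, 1.53, 1.49 and 1.41. Uqcrq, a ubiquinone-binding subunit, stood at 19510 and 18860 in controls and at 6348, 6795 and 7509 in that window (-1.49, SE 0.23, adjusted p = 3.4e-06), and Uqcrh at 6980 and 6961 and then at 1723, 2602 and 3476 (-1.41, SE 0.31, adjusted p = 0.00046). No array of either gene overlaps the controls. Uqcrh, the hinge protein between cytochromes c1 and c, had its lowest mean at 1 d (-2.49) and was higher at 3 to 4.5 d than at 12 h to 2 d (0.57, adjusted p = 0.046).

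Cyc1, the cytochrome c1 of complex III, did not come back by 50% of its log2 fall at any time and the next. It stood at 25820 and 28400 in controls and at 6142, 8080 and 10140 at 3 to 4.5 d (-1.78, SE 0.25, adjusted p = 8.5e-07, 3.44-fold). Its arrays of 20 to 40 d lay at 9708, 13760 and 20530, below both controls on all 6 arrays (-0.93, SE 0.26, adjusted p = 0.027). That late call was lost with either control, 30 d replicate 2 or 40 d replicate 1 left out (adjusted p up to 0.23), and the change was -0.51 under quantile normalization. A second Cyc1 probe set gave -0.12 at 3 to 4.5 d (SE 0.56, adjusted p = 0.93), so the probe sets of this gene disagree.

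Cycs, the somatic cytochrome c that carries electrons from complex III to complex IV, stood at 2480 and 1986 in controls and at 336.5, 543.2 and 935.2 at 3 to 4.5 d (-2.01, SE 0.28, adjusted p = 5.5e-07, 4.03-fold). It was at 648.9, 980.8 and 1442 at 11 to 16 d (-1.25, adjusted p = 0.00084). At 20 to 40 d it stood at 928.1, 1168 and 1955, still below both controls on all 6 arrays, but the change did not pass (-0.88, adjusted p = 0.061).

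Of the 14 genes of complex V, the ATP synthase, 12 fell at 3 to 4.5 d, with a median of -1.41. All 4 measured subunits of the soluble part (F1; the catalytic head and the central stalk) fell, with a median of -1.5, and all 3 of the peripheral stalk, with a median of -1.59. Of the small membrane subunits 4 of 5 fell (median -1.42), and of the 2 genes of the c ring, which turns in the membrane, 1 did (median -0.41).

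Atp5e, of the central stalk, stood at 10710 and 12960 in controls and at 1542, 2264 and 2855 at 3 to 4.5 d (-2.44, SE 0.42, adjusted p = 1.7e-05, 5.43-fold). Its lowest mean, at 1 d, was the lowest of all 60 genes (-3.44, 10.9-fold). Atp5md, a small membrane subunit, stood at 6567 and 6723 and then at 966.3, 1455 and 2112 (-2.17, SE 0.25, adjusted p = 1.7e-08). Atp5l, a small membrane subunit (-1.94), and Atp5o, of the peripheral stalk (-1.59), fell too. A dimmer Atp5l probe set gave a smaller fall (-0.88, SE 0.29, adjusted p = 0.015, limma). Atp5o had already come back by 0.71 from 12 h to 2 d (adjusted p = 0.035, limma).

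Atp5a1, the alpha subunit of the head, stood at 30920 and 30970 and then at 9866, 12090 and 13600 (-1.39, SE 0.16, adjusted p = 2.7e-08). At 20 to 40 d it was at 18300, 20290 and 24250, below both controls on all 6 arrays (-0.59, SE 0.17, adjusted p = 0.03). That late call was lost with either control, 30 d replicate 2 or 40 d replicate 1 left out (adjusted p up to 0.19), and the change was -0.1 under quantile normalization.

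Atp5g1 and Atp5g2 encode the same c subunit. Atp5g2 stood at 2085 and 2356 in controls and at 1293, 1426 and 1658 at 3 to 4.5 d (-0.62, SE 0.11, adjusted p = 3e-05), below both controls. With the mean of its probe sets the change was -0.13 and did not pass. Atp5g1 stood at 431 and 314.9 and then at 214.3, 346.1 and 439, on both sides of the controls (-0.19, SE 0.33, adjusted p = 0.72), while another Atp5g1 probe set fell by 0.78 (adjusted p = 0.012). The log2 ratio of Atp5g1 to Atp5g2 was -2.59 ± 0.44 on the 2 controls, -2.16 ± 0.26 on the 8 arrays of 3 to 4.5 d and -2.53 ± 0.52 on the 6 arrays of 20 to 40 d (SD). By 2-sided exact permutation tests the 3 to 4.5 d window did not pass against either (differences 0.43 and 0.37, p = 0.089 and 0.093, both adjusted to 0.093). Without the 8 arrays low in Gapdh 3′ the difference from 20 to 40 d was 0.57 (exact permutation p = 0.048, without adjustment). No adjusted value was computed for that fit, so it was not called. Atp5j2, a small membrane subunit with dim controls of 128.1 and 130.1, stood at 76.62, 121.7 and 193.2, on both sides of the controls, and changed by -0.08 (SE 0.34, adjusted p = 0.91).

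Atp5pb fell by 1.16 and Atp5mpl by 1.01 at 3 to 4.5 d, but both calls were lost without control replicate 1 (adjusted p = 0.074 for Atp5pb). That of Atp5mpl was also lost without control replicate 2, without 3.5 d replicate 2 and under quantile normalization (-0.82).

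All 4 assembly factors fell at 3 to 4.5 d, with a median of -1.08. Ndufaf1, which helps build the membrane arm of complex I, stood at 1571 and 1611 in controls and at 439.2, 748.4 and 940.4 (-1.15, SE 0.16, adjusted p = 4.2e-07), and was back within 0.5 log2 at 6 d. Ndufaf4, another factor of complex I, stood at 724.7 and 859.3 and then at 152.9, 307 and 349.8 (-1.47, SE 0.23, adjusted p = 3.4e-06). It was at 326.2, 427.3 and 622.8 at 20 to 40 d, below both controls on all 6 arrays (-0.84, SE 0.24, adjusted p = 0.025). That late call was lost with either control, 30 d replicate 1 or 40 d replicate 1 left out (adjusted p up to 0.27), without the 8 arrays low in Gapdh 3′ (-0.55, adjusted p = 0.35) and with the mean of its probe sets (-0.42, adjusted p = 0.081). Sdhaf1 and Sdhaf2, which help mature Sdhb and Sdha, fell by 1.01 (SE 0.15, adjusted p = 2.5e-06) and 0.63 (SE 0.2, adjusted p = 0.011).

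**Figure D4:**
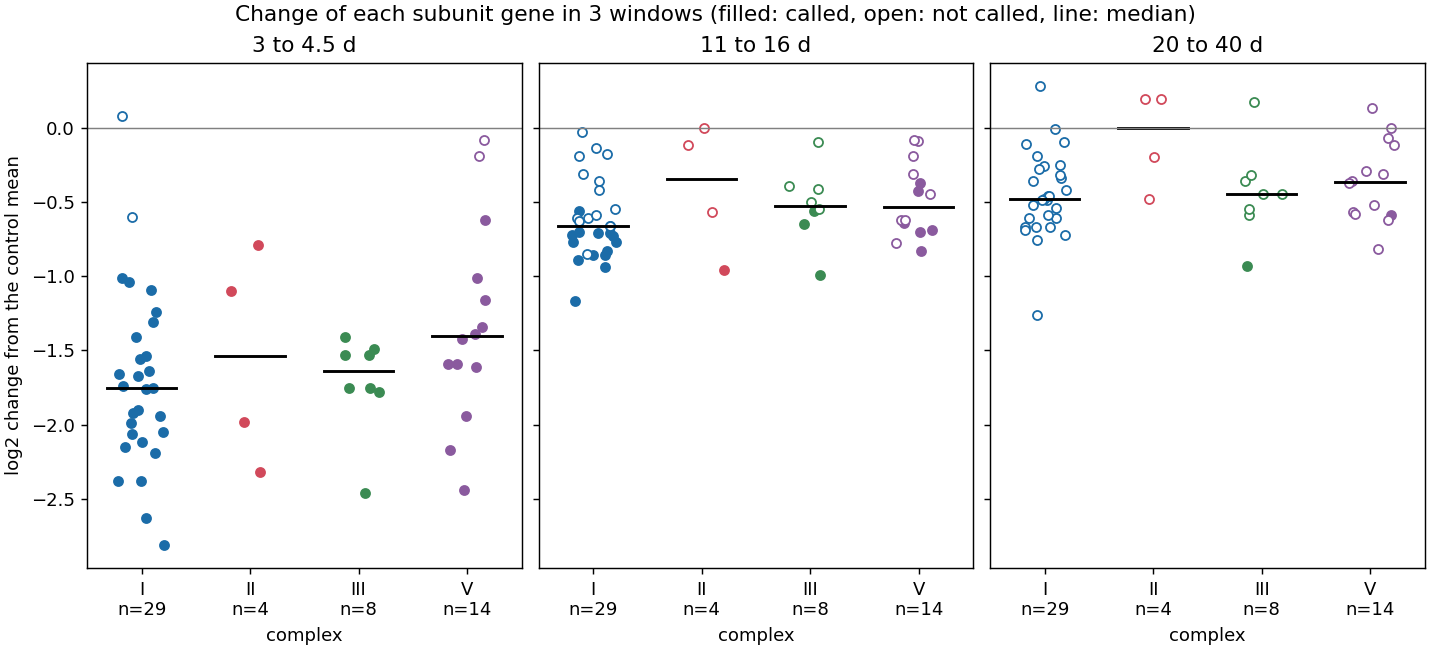
Log2 change of each subunit gene at 3 to 4.5 d, 11 to 16 d and 20 to 40 d, by complex, with 1 point per gene, filled where called (adjusted p under 0.05) and open where not, and the median as a line. The medians of complex I are -1.75, -0.66 and -0.48 and those of complex V -1.41, -0.53 and -0.37, and nearly all points are open at 20 to 40 d.

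From 3 to 4.5 d to 5 to 7.5 d, 46 of the 60 genes rose (9.16% of all probe sets did) and none fell with limma (12%; 0 at an unadjusted p under 0.05), with a median of 0.6. The 46 include 23 of 29 in complex I (median 0.63), 3 of 4 in complex II (0.35), 8 of 8 in complex III (0.75) and 9 of 14 in complex V (0.53). Uqcr11 (1.25), Atp5md (1.18) and Ndufc1 (1.1) rose most.

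Fewer genes passed in the later steps, while 28, 15 and 13 genes rose at an unadjusted p under 0.05 in the next 3 steps. From 5 to 7.5 d to 8 to 10 d, 4 genes rose (1.03% of all probe sets), namely Ndufa13 (0.41, adjusted p = 0.014), Ndufb2 (0.4, adjusted p = 0.014), Ndufb8 (0.43, adjusted p = 0.031) and Ndufc1 (0.54, adjusted p = 0.045). From there to 11 to 16 d, 4 others rose (3.17%): Ndufs1 (0.57, adjusted p = 0.0016), Ndufs4 (0.81, adjusted p = 0.024), Sdha (0.73, adjusted p = 0.00034) and Sdhc (0.38, adjusted p = 0.032). No gene fell in either step with limma (3.36% of all probe sets in the second), nor at an unadjusted p under 0.05 (0 in each). From 11 to 16 d to 20 to 40 d, Ndufs1 (0.59, adjusted p = 0.00092), Ndufs4 (0.89, adjusted p = 0.012) and Sdha (0.76, adjusted p = 0.00017) rose again, with Atp5g2 (0.25, adjusted p = 0.013; 8.19% of all probe sets). These 3 counts depend on single arrays, most of all those of 12 h, which enter through the shared spread. With either 12 h array left out they were 19, 14 and 10, and without the 7 arrays low in b-actin 3′ 25, 20 and 16. The first was 2 without each of 11 arrays of 5 to 10 d. The second was 2 without 8 d replicate 2, 9.5 d replicate 1, 11 d replicate 1 or 13 d replicate 2, and the third 2 without 30 d replicate 1 and 7 without 12 d replicate 1.

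Between the first windows few of the 60 genes passed, 4 up and 4 down, each a smaller share than over all probe sets. Their median step was -0.05. From 12 h to 2 d to 3 to 4.5 d, Atp5g2 (0.42), Atp5mpl (0.82), Atp5o and Uqcrh rose (16.9% of all probe sets), and Atp5md (-0.52), Ndufb2 (-0.36), Ndufc1 (-0.52) and Sdhaf1 (-0.28) fell (10.7%). These 2 counts rest on the early arrays. Without 12 h they were 15 and 0, and without the 7 arrays low in b-actin 3′, which leaves 12 h replicate 1 alone in the first window, 0 and 51.

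The day of return was read from the group medians. A complex was counted as having regained 50% of its lowest log2 fall at the first later time at which it had done so there and at the next time. This came at 6 d in complexes III and V and at 8 d in complexes I and II. Read on replicate 1 and on replicate 2 alone, it came at 6 and 8 d in complex I, at 6 d in complexes II and III on both, and at 5 and 6 d in complex V. The median over single genes was 6 d in each complex.

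Return to within 0.5 log2 of the controls, again held at the next time, came at 11 d in complex II, 14 d in complex III and 16 d in complexes I and V. It did not last in complexes I and III, whose medians lay beyond 0.5 log2 again at 30 d (-0.58 and -0.61) and 40 d (-0.55 and -0.71). Those of complexes II and V stayed within it. On single replicates it ranged from 16 to 20 d in complex I, 13 to 14 d in complex II, 11 to 16 d in complex III and 10 to 11 d in complex V. Leaving out single arrays moved it between 8 and 13 d in complex II and between 8 and 16 d in complex V. Complex II was thus back before complex I on both replicates and with each single array left out that gave a value, but with 30 and 40 d as the reference complex I was back at 6 d and complex II at 11 d. The places of complexes III and V overlap those of the others. By this measure 11 genes of complex I, 1 of complex III and 2 of complex V had no day of return, and none of complex II. A gene within 0.5 log2 at a single time before 40 d was not counted as back. At 40 d, the last time, no next time was required. Ndufb5, Uqcrb, Atp5k, Atp5l and Atp5md were counted as back only there, so their return was not seen to hold. The genes of complex II differed, with Sdhd back at 5 d, Sdhc at 8 d, Sdhb at 14 d and Sdha at 16 d. Among the complex I genes that returned, the median was 13.5 d.

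The return was not even. The complex I median was -0.95 at 6.5 d, -1.48 at 7 d and -1.07 at 7.5 d, and -0.71 at 8.5 d, -1.21 at 9 d and -0.8 at 9.5 d. The other complexes dipped at the same times, complex V to -1.11 at 7 d and -0.82 at 9 d. The counts of lower genes followed, with 29 at 6.5 d (9.11% of all probe sets), 52 at 7 d (13.4%) and 37 at 7.5 d (11%), then 15 at 8.5 d (8.14%), 43 at 9 d (13.4%) and 19 at 9.5 d (8.09%). Between and after these times they numbered 28 at 8 d (9.67%), 10 at 11 d (7.69%), 19 at 12 d (7.93%), 24 at 13 d (8.89%) and 5 at 14 d (4.73%).

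Tested directly, neither dip passed for any member. For 7 d against 6.5 and 7.5 d limma called 0 of 60 (0.108% of all probe sets lower), with 19 at an unadjusted p under 0.05 (11% of all probe sets), 54 below zero and a median of -0.35 against 0.02 over all probe sets. For 9 d against 8.5 and 9.5 d it called 0 (0.942%), with 16 at an unadjusted p under 0.05 (15.2% of all probe sets), 51 below zero and a median of -0.39. Both comparisons were chosen after seeing the data.

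**Figure D5:**
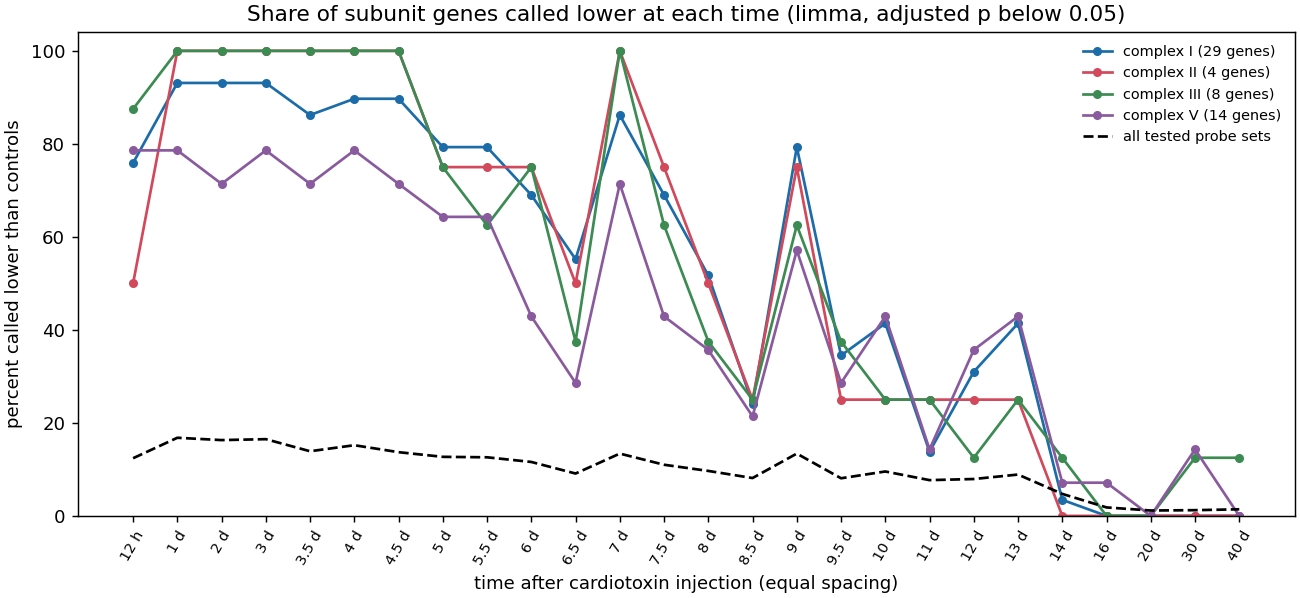
Percent of the subunit genes of each complex called lower than in untreated muscle at each of the 26 times (limma, adjusted p under 0.05), with the percent of all 11997 tested probe sets as a dashed line. From 1 to 4.5 d complexes II and III stand at 100%, all 4 lines rise at 7 d and 9 d above their neighbours, and all 4 are at 0 at 20 d.

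At the latest times most genes stood below the controls without passing. At 20 d no gene was called lower by limma (1.16% of all probe sets; 2 at an unadjusted p under 0.05), at 30 d 5 were (1.23%) and at 40 d 1 was (1.42%). The complex II median was -0.13 at 20 d, -0.01 at 30 d and -0.02 at 40 d. That of complex I was -0.25, -0.58 and -0.55, that of complex III -0.1, -0.61 and -0.71 and that of complex V -0.09, -0.48 and -0.48. On the same arrays of 20 to 40 d complex I lay below complex II by -0.42 ± 0.22 (6 of 6 arrays).

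Against 20 d, the 30 and 40 d means lay below in 52 of 60 genes, with a median of -0.31 against 0 over all probe sets. None passed with limma (0.383% of all probe sets lower), and 10 had an unadjusted p under 0.05, as did 10.8% of all probe sets. Of these 4 arrays 3 were low in Gapdh 3′. Without the 8 arrays low in it the median was -0.19 and no gene was called at 20 to 40 d. The part of what lowered that ratio was not tested. The calls at 20 to 40 d (Cyc1, Atp5a1 and Ndufaf4) numbered 0 to 14 with single arrays left out.

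Markers of other cells moved in the same samples. Of 12 genes of mature fibres 8, 8, 5, 3, 5 and 0 were lower in the 6 windows (medians -1.6, -1.94, -0.84, -0.74, -0.86 and -0.63), and their summed intensity was 263800 and 338300 in controls, 76680 to 168700 at 3 to 4.5 d and 129400 to 322700 at 20 to 40 d. All 13 measured macrophage markers were higher in the first 5 windows, with a summed intensity of 5847 and 8930 in controls and 73010 to 118000 at 3 to 4.5 d. Fcer1g and Itgam were at the floor on both controls. Of 10 neutrophil markers 5 were higher at 12 h to 2 d (23330 to 71160 summed, against 3213 and 3660). Of 10 genes of forming fibres and 9 of dividing cells, 9 and 9 were higher at 3 to 4.5 d. The part of cell makeup in the falls was not tested.

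Other mitochondrial genes, from lists written from textbook knowledge, were read beside the 60, against 18.5% of all probe sets lower and 22.2% higher at 3 to 4.5 d. Of 18 genes of the citric acid cycle and pyruvate dehydrogenase 17 fell at 3 to 4.5 d (median -1.67), with Pdk4, a kinase that holds pyruvate dehydrogenase back, at -3.54, Sucla2 at -2.85 and Idh3a at -2.73. Their count stayed at 17 to 8 to 10 d and was 9 at 11 to 16 d and 0 at 20 to 40 d. Of 15 cytochrome oxidase genes 10 fell and 1 rose (median -1.17). The muscle forms Cox7a1 (-4.87), Cox8b (-3.87) and Cox6a2 (-3.03) fell, where Ndufc1, the deepest of the 60 in this window, stood at -2.81. The form Cox6a1, found in other tissues, rose by 1.49 (SE 0.13, adjusted p = 4.9e-11).

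Of 59 genes of the mitochondrial ribosome 32 fell and none rose (median -0.73), and of 21 of protein import and folding 10 fell and 1 rose (median -0.52). Of 14 carriers and channels 6 fell and 2 rose (median -0.42; all probe sets 18.5% and 22.2%), led by Ckmt2, mitochondrial creatine kinase, at -4.23. Of 8 mitochondrial antioxidant genes 5 fell (median -0.89), with Sod2 at -1.95. These medians are less deep than that of the 60 genes in the same window, -1.6, apart from the citric acid cycle.

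Of 16 regulators of mitochondrial genes 5 fell and 3 rose at 3 to 4.5 d (median -0.25), where 18.5% and 22.2% of all probe sets did. Esrra, the nuclear receptor ERRa, fell by 1.6 (SE 0.18, adjusted p = 1.1e-08) and Ppara, a regulator of fatty acid oxidation, by 2.18. Ppargc1a, a coactivator of mitochondrial genes, changed by -0.58 (adjusted p = 0.2) and Gabpa, the DNA-binding subunit of GABP, by -0.05 (adjusted p = 0.94). Gabpb1, its partner, rose by 0.84, and Myc by 1.51. Nrf1 was not among the probe sets tested.

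The 60 genes varied alike with few exceptions. Over the 27 group means, the log2 course of Ndufb11 correlated best with the median course of the 60 genes (r = 0.988), followed by Ndufs3 (0.986), Atp5l (0.985) and Ndufv2 (0.984). The lowest were Ndufa1 (-0.024), Atp5g1 (0.101), Atp5j2 (0.233), Ndufc2 (0.313) and Ndufa12 (0.322), all dim. Among genes outside the set, the courses most like that median were those of Fmc1, a factor of ATP synthase assembly (0.984), Fh1, fumarase (0.968), Suclg1, a subunit of succinyl-CoA ligase (0.965), Cox8b (0.958) and Acyp2, an acylphosphatase (0.957). These correlations share the same 54 arrays and describe them only.

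On the earlier array version 52 of the 60 genes were tested, 57 of the 60 with the same probe set as on Av2. Sample codes are shared between versions for the controls and 12 h, and differ for 1, 2, 4 and 10 d. Lower genes numbered 9 at 12 h (11.6% of the 4742 tested probe sets), 49 at 1 d (23.9%), 46 at 2 d (25%), 36 at 4 d (23%) and 4 at 10 d (13.2%). At 4 d they were 14 without control replicate 1 or 4 d replicate 2, 17 without control replicate 2 or 4 d replicate 1 and 11 with no filter. At 10 d they were 29 with either 12 h array left out, 1 or 2 with either control or either 10 d array left out and 1 with no filter. The median changes were -1.33, -1.94, -2, -1.63 and -0.75, and those of the same genes on Av2 -1.22, -1.89, -1.84, -1.6 and -0.75. The medians of complexes I, II, III and V were -1.39, -1.05, -1.32 and -1.42 at 12 h, -2.1, -1.82, -1.91 and -2.18 at 1 d and -2.07, -1.95, -2.06 and -1.94 at 2 d. At 4 d they were -1.81, -1.72, -1.7 and -1.5, and at 10 d -0.84, -0.86, -0.71 and -0.6. Complex I was thus the deepest at 2 d and 4 d, complex V at 12 h and 1 d and complex II at 10 d.

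Sdha stood at 3357 and 3785 in controls and at 1057 and 1039 at 10 d (-1.77, adjusted p = 0.02, limma). Sdhd stood at 9737 and 9708 in controls and at 6418 and 6012 at 10 d (-0.65, adjusted p = 0.17, limma). At 4 d the changes were -2.46 (adjusted p = 0.0027, limma) and -0.92 (adjusted p = 0.039, limma). Sdha stood at 609 and 370 there, both under the floor of 646.8 of this version. The size of its fall at 4 d is therefore a lower bound, set by the floor. The difference between the changes of the 2 genes was not tested on these arrays.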

How the data were processed

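Values were used as deposited by the authors, 1 file per array version. The unit is not stated; their range is that of array intensity on a linear scale, and the deposited values were taken as such, already brought by the authors to a common trimmed mean (598.2 to 601.1 on the earlier version). The authors' software and background method were not given in the sources used here. Intensities were raised to a floor (64.7 on Av2, the 20th percentile of the median array; 646.8 on the earlier version) and put on the log2 scale, the scale of no deposited value. Probe sets above the floor on at least 2 arrays were tested (11997 of 12488, and 4742 of 12654), without the 66 control probe sets. Symbols came from the platform annotation; 8 probe sets of member genes were left out because they are annotated to several genes. Identifiers that end in f_at, s_at, g_at, i_at or r_at (among them those of Atp5e, Atp5g2, Atp5md, Ndufa5, Sdhb and Uqcrb) mark probe sets of lower specificity, which can read related sequences.

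limma 3.58.1 in R 4.3.3 was fitted with 1 mean per group; 6 windows were each set against the 2 controls and against the window before, with Benjamini-Hochberg adjustment over all tested probe sets. A complex's course is the median over its subunits. Named in full were the 2 deepest and 2 shallowest genes of complexes I, III and V at 3 to 4.5 d, complex II, Cyc1, Cycs, the c ring genes, assembly factors and genes called at 20 to 40 d, with up to 3 genes per other list; others were named after their values were seen. Members, lists and windows were chosen with earlier results of these data known. Of 3 planned comparisons of c ring genes 1 was possible, since Atp5g3 has no probe set among the members. The fits were tested on simulated data. Alternatives were other floors, filters and scalings, other reference times, the mean of probe sets, a replicate block and single arrays left out.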

Additional observations from a re-analysis of the deposited data

Results flagged for a closer look

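In 3 comparisons of neighbouring windows, the share of the 60 genes that rose was over 2 times that of all probe sets. From 3 to 4.5 d to 5 to 7.5 d, 46 of the 60 genes rose (9.16% of all probe sets). From 5 to 7.5 d to 8 to 10 d 4 did (1.03%), and from 8 to 10 d to 11 to 16 d 4 did (3.17%). Each was called by limma's test of the difference itself. Neither the first step (4 rises, 16.9%, and 4 falls, 10.7%) nor the last (4 rises, 8.19%) reached that share.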

How the results depend on the processing

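Counts below are of the 60 genes and times are days. Every fall called at 3 to 4.5 d kept its sign in the alternatives tried. Of the gene calls at 3 to 4.5 d, 25 were lost where at least 2-fold was required, 3 with 30 and 40 d as the reference (Atp5k, Atp5mpl, Ndufa12) and 1 each with the mean of probe sets (Atp5g2), quantile normalization (Atp5mpl), without 4 d (Ndufa12) and without the arrays low in b-actin 3′ (Ndufa12) or Gapdh 3′ (Atp5mpl). With at least 2-fold required, the lower counts were 21, 31, 2, 1, 0 and 0 in the 6 windows, and no step between windows was called. Against 30 and 40 d in place of the controls, lower genes numbered 13 at 8 to 10 d, 4 at 11 to 16 d and 0 at 20 to 40 d, and the last step had 1; the medians at 3 to 4.5 d were -1.3 (I), -1.39 (II), -1.07 (III) and -0.98 (V), the lowest times 3 (I) and 1 (II), the 50% return 5 (I), 6 (II), 5 (III) and 5 (V), and the return to within 0.5 log2 6 (I), 6 (III) and 5 (V).

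Quantile normalization gave 14 lower at 11 to 16 d, 1 at 20 to 40 d and 9 rises from 8 to 10 d to 11 to 16 d, medians of -1.31 (II) and -1.32 (III), lowest times of 3 (I) and 1 (II), a 50% return at 6 (I), 6 (II) and 5.5 (III) and a return to within 0.5 log2 at 8 (II), 9.5 (III) and 11 (V). Median scaling shifted the median of all probe sets by less than 0.1 log2 (to -0.07 at 3 to 4.5 d) and gave medians of -1.92 (I), -1.72 (II), -1.81 (III) and -1.58 (V), 1 rise and 8 falls between the first windows, 2 rises from 5 to 7.5 d to 8 to 10 d, lowest times of 3 (I), 3 (II) and 3.5 (III), a 50% return at 7.5 (III) and a return to within 0.5 log2 at 14 (II). The doubled floor, like a variance trend with robust moderation, gave 7 rises from 8 to 10 d to 11 to 16 d. Averaging a gene's probe sets gave 1 lower at 20 to 40 d, a lowest time of 3 (I) and a return at 11 (V), and the mean over genes a return at 14 (II) and 11 (V). With 1 time point enough, the 50% return came at 6.5 (I) and 6.5 (II). Within 0.25 log2 the return was 14 (II), and within 1 log2 8 (I), 6 (II), 6 (III) and 5 (V). Without the filter on the earlier version, lower genes numbered 11 at 4 d and 1 at 10 d.

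The fits without 12 h and without the arrays low in Gapdh 3′ were chosen after seeing the data. Without 12 h, 14 genes were lower at 20 to 40 d, the first step had 15 rises and 0 falls, and the later ones 19, 14 and 10 rises (8 to 10 d on). Without 4 d the first step had 2 rises. Without the arrays low in Gapdh 3′, 12 genes were lower at 11 to 16 d and 0 at 20 to 40 d. In that fit the first step had 2 rises and 2 falls, that to 8 to 10 d had 1 rise, and complex V returned at 11. The Atp5g1 to Atp5g2 difference was then 0.57, with an exact permutation p = 0.048 that was not adjusted. Without the arrays low in b-actin 3′, 7 genes were lower at 12 h to 2 d and 20 at 20 to 40 d, the first step had 0 rises and 51 falls, the later ones 25, 20 and 16 rises, and the lowest time was 3 in I, II, III and V. The cause was not tested, other than that these fits hold fewer arrays.

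With single arrays left out, lower genes ranged from 51 to 54, 52 to 56, 41 to 52, 22 to 45, 2 to 38 and 0 to 14 in the 6 windows, and genes changed over the course from 53 to 55. Rises over the steps ranged from 1 to 20 (falls 0 to 23), 41 to 49, 2 to 19, 2 to 14 and 2 to 10. Lower genes on the earlier version ranged from 14 to 50 at 4 d and 1 to 29 at 10 d. Lowest times ranged from 0.5 to 3 (I), 1 to 3 (II), 0.5 to 2 (III) and 1 to 3 (V), the 50% return from 6 to 9.5 (I), 6 to 8 (II), 6 to 6 (III) and 5 to 6 (V), and the return to within 0.5 log2 from 16 to 16 (I, where a value was given), 8 to 13 (II), 11 to 16 (III) and 8 to 16 (V). The medians at 3 to 4.5 d ranged from -1.81 to -1.74 (I), -1.6 to -1.48 (II), -1.67 to -1.57 (III) and -1.48 to -1.36 (V), and the Atp5g1 to Atp5g2 difference from 0.19 to 0.48.

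The replicate numbers of the sample codes do not pair the arrays (median correlation of deviations 0.00312 over 153 pairs of groups, -0.168 to 0.161). With the replicate block the first step had 7 rises and 2 falls, and it moved no other count by over 1.5 times. With 2 arrays in a group and 2 controls shared by every window, precision is limited by the number of arrays. The dim genes Ndufa12 and Atp5j2 lie nearest the floor.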
